A study of Oryza sativa with 10 samples.

Results

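The later part of rice seedling greening was examined by comparing the transcript levels of seedlings after 24 h of light with those after 8 h of light. The comparison uses the 2 libraries at 24 h and the 2 libraries at 8 h, which are 4 of the 10 libraries of the series. The seedlings were of the cultivar YD6 (Oryza sativa, indica), germinated for 3 d in darkness and then moved into light. Poly(A) RNA of whole seedlings was sequenced at 24 h of light, at 8 h of light and in the dark (0 h), and also at 24 h of light from seedlings sprayed with ABA or IAA shortly before sampling, with 2 biological replicates in each of the 5 conditions. The sprays were dissolved in DMSO, and the sources used here do not tie a DMSO spray to the 24 h libraries. The dark libraries were used to say which changes began, stopped or turned round after 8 h, and the sprayed libraries entered the shared estimate of the spread. A seedling holds shoot, root and seed tissue, and in such a bulk sample fewer cells of a type cannot be told apart from less RNA per cell.

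When a seedling raised in darkness first meets light, it turns from rapid elongation at the cost of its reserves to photomorphogenesis, in which the etioplast becomes a chloroplast and the photosynthetic complexes are assembled. Light is perceived by photoreceptors such as the phytochromes and cryptochromes, and the signal reaches the genes through transcription factors. The GOLDEN2-LIKE (GLK) proteins activate genes of chloroplast biogenesis, and HY5, a bZIP factor described in Arabidopsis, promotes light-responsive genes. Many plant genes also follow the circadian clock, so that samples taken at different hours of the day can differ for this reason too. The sources used here give neither the hour of sampling nor whether the light was continuous. The seedlings at 24 h were also older than those at 8 h, and the series holds none kept in darkness to the same age. The time spent in light, the age of the seedlings and the time of day cannot be told apart between 24 h and 8 h.

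The table used here holds FPKM, which scales the fragments of each gene by gene length and by the size of the library, for 2282 genes at the start of chromosome 1, up to position 21262392 of the MSU7.0 gene models. Of these, 491 are listed at 0 in every library and 699 have a mean under 1 FPKM over the 10 libraries. The remaining 1092 genes were tested on log2(FPKM + 1) with limma, in one fit over all libraries, and a gene was called where it changed at least 2-fold with an adjusted p-value under 0.01. The replicates at 24 h lay farther apart than those of any other condition, with a Euclidean distance of 7.82 over the tested genes against 4.86 at 8 h, but each lay at least 19.6 from both libraries at 8 h. The sequencing depth is unknown, because FPKM values no longer hold it. The files do not pair the gene IDs with names, and a single ID could be found in the RefSeq list, that of a gene that was not tested. Genes are therefore given by ID, apart from GLK2 and OsbZIP1, which the study names, and no functional group could be counted. Green tissue and seed markers could not be looked up for the same reason.

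From 8 h to 24 h, 38 genes rose and 39 fell, which is 3.48% and 3.57% of the 1092 tested genes, or 7.05% in all. In all 77 the libraries of the groups did not overlap, against 21.2% of the tested genes with both libraries at 24 h above both at 8 h and 54.9% with both below. The imbalance in these shares goes with a shift of the whole table. The median gene was lower at 24 h by -0.18 on the log2 scale, 757 genes had a change below 0 and 335 a change above 0. The genes called higher changed by 1.0 to 3.80 on the log2 scale with a median of 1.44, and 9 of them changed at least 4-fold. The genes called lower changed by -4.48 to -1.01 with a median of -1.26, and 4 of them changed at least 4-fold. Without a limit on the size of the change, 133 genes were higher and 355 lower at an adjusted p-value under 0.01.

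FPKM is relative to the library total, and the shift of the median moves with the balance of calls. After median-of-ratios scaling, which sets the typical gene to no change, 54 genes were called higher and 23 lower. The share of rises among the calls was thus 70.1% after scaling and 49.4% in the values as deposited. All 38 genes called higher as deposited were also called higher after scaling. Of the 39 called lower, 23 were also called lower after scaling and 16 were not. At the limit of the call, the nearest rises lay at 0.98 outside and 1.0 inside, and the nearest falls at -0.99 outside and -1.01 inside.

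**Figure D1:**
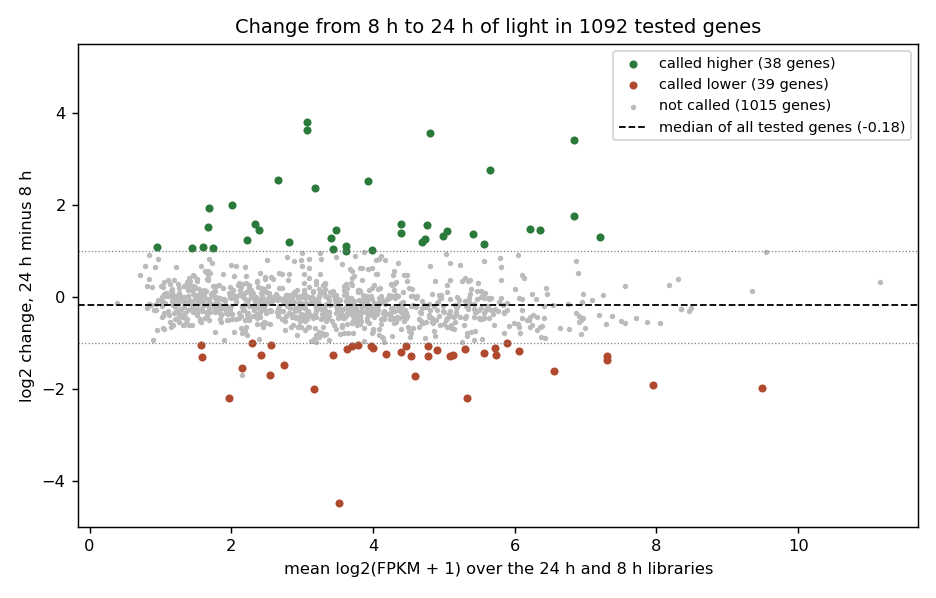
Change in transcript level at 24 h of light relative to 8 h for each of the 1092 tested genes (y axis, log2 change) against its mean level in the 4 libraries (x axis, log2(FPKM + 1)). Each point is a gene, green where called higher (38), red where called lower (39) and grey where not called, the dashed line is the median of all tested genes at -0.18 and the dotted lines mark a 2-fold change; called genes lie at every level.

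Genes of all levels were among those called, and more of them came from the highly expressed part of the table. The tested genes were put into 4 bins of 273 by mean level. In the lowest bin, from 1.0 to 3.78 FPKM, 5 were called higher and 3 lower, while the highest bin, from 20.5 FPKM upward, held 17 called higher and 18 called lower. The median standard error of the change was 0.135 in the lowest bin and 0.0679 in the highest. On the log2(FPKM + 1) scale the changes of the weak genes are also understated, and how far this bears on the number of calls was not tested. The median change was -0.09 in the lowest bin and -0.28 in the highest. The genes called higher had a median level of 25.1 FPKM at 24 h and 6.82 FPKM at 8 h, and those called lower had 12.9 FPKM at 24 h and 35.1 FPKM at 8 h. Over all tested genes the median level was 8.33 FPKM at 24 h and 9.40 FPKM at 8 h. The gene models called higher spanned a median of 3338.5 bases and those called lower 1920 bases, beside 3591.5 bases for all tested genes. These spans include introns and were not tested.

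Few genes passed between a silent and an expressed state after 8 h. With 1 FPKM as the border, 9 tested genes were at or above it in both libraries at 24 h and under it in both at 8 h, of which 4 were called, and their median level was 1.61 FPKM at 24 h and 0.523 FPKM at 8 h. In the other direction, 12 tested genes were under the border in both libraries at 24 h and at or above it in both at 8 h, of which 2 were called, with a median of 0.803 FPKM at 24 h and 1.54 FPKM at 8 h. Most of these genes lay close to the border at both times. Of the 12 that dropped below it, 10 had also been expressed in the dark, and of the 9 that passed above it, 7 had been under 1 FPKM in both dark libraries. To be tested, a gene needed a mean of at least 1 FPKM over all 10 libraries. Genes low at 24 h passed mainly where other libraries, such as those of the dark, were higher. The filter thus favours the 10 of 12, and the matching shares over all tested genes were not counted. Among the genes not tested, 1 passed above the border and 10 dropped below it. The mean used as the filter also holds the sprayed libraries, which were taken near 24 h, but only 2 libraries of 8 h. A gene low at 24 h therefore tends to fail the filter, and one high at 24 h tends to pass. The counts of the tested and the untested genes thus do not compare the directions. In 1 further gene a large fall was not called. It changed by -1.70 on the log2 scale (adjusted p = 0.0182 from limma), with 0 and 5.07 FPKM at 24 h and 7.25 and 6.77 FPKM at 8 h, so that the change rested on the library listed at 0.

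To see how the later step relates to the first, each gene was placed by its calls from 0 h to 8 h and from 8 h to 24 h. In the first step 46 genes rose and 42 fell, which is 4.21% and 3.85% of those tested, or 8.06% in all. After median-of-ratios scaling 69 rose and 26 fell in that step, and with a pseudocount of 0.1 FPKM 63 rose and 66 fell. Both steps use the libraries at 8 h, with opposite sign, so the numbers below describe the calls and are no independent evidence of a relation between the steps. A gene was said to start after 8 h where it was called in the later step, was not called in the first and changed by less than 0.5 on the log2 scale there. It was said to stop where it was called in the first step, was not called in the later one and changed by less than 0.5 there. Genes called in both steps either continued in one direction or reversed. Of the 137 genes called in at least 1 step, 28 started after 8 h, 40 stopped, 16 reversed and 12 continued, and 41 met none of these rules. The other 955 tested genes were called in neither step.

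**Figure D2:**
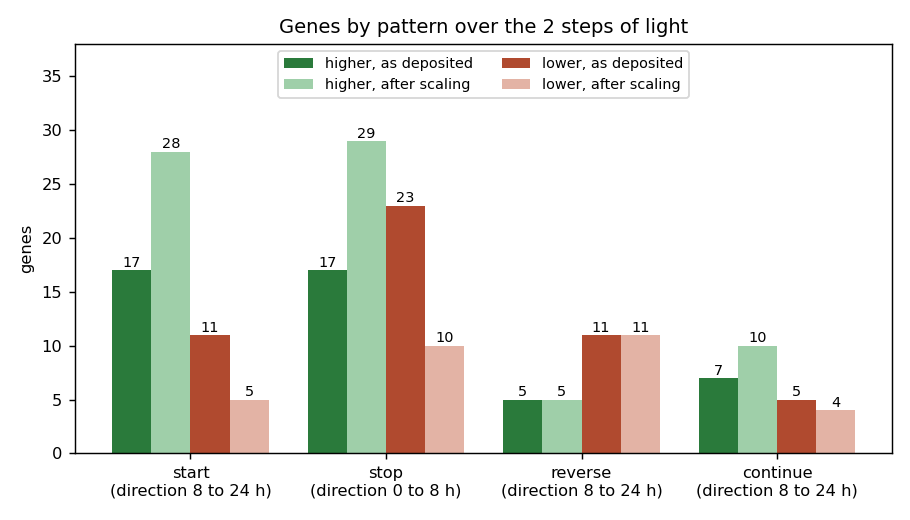
Number of genes (y axis) that started, stopped, reversed or continued after 8 h of light, by direction, for the values as deposited (dark bars) and after median-of-ratios scaling (light bars). For genes that stopped, the direction is that of the first step, and for the others that of the later step; genes that started upward number 17 as deposited and 28 after scaling, and those that started downward 11 and 5.

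Among the genes that started after 8 h, 17 rose and 11 fell. The rising genes had median levels of 5.53, 5.76 and 19.5 FPKM at 0, 8 and 24 h, and the median of their later change was 1.44 on the log2 scale. Of the 17, 16 were also called higher at 24 h than at 0 h, a comparison in which 6.96% of the tested genes were called higher. The falling genes had median levels of 25.1, 27.0 and 10.9 FPKM at 0, 8 and 24 h, with a median later change of -1.12, and 7 of the 11 were called lower at 24 h than at 0 h, beside 8.52% of the tested genes. A call in 1 step alone does not show that the steps differ, so the difference between the steps was tested as a contrast of its own, which called 14.7% of the tested genes, 6.5% with the later step the higher and 8.24% with it the lower. It called 15 of the 17 rising genes and 6 of the 11 falling ones, counts that the choice of these genes by the same values largely fixes. Of the rising genes 14 of the 17 kept their call in each of the 4 fits that left out 1 library of 24 h or 8 h, and of the falling genes 5 of the 11 did. After median-of-ratios scaling, 28 genes started upward, 16 of them among the 17, and 5 started downward, 3 of them among the 11.

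The largest rise after 8 h was that of LOC_Os01g08020, a minus-strand gene of chromosome 1 between 3878069 and 3900085 in the MSU7.0 models. It had 2.13 and 2.21 FPKM at 0 h, 1.16 and 1.36 FPKM at 8 h, and 31.6 and 29.1 FPKM at 24 h. Both libraries at 24 h lay far above the other time points, and the gene was a low transcript in the dark and at 8 h. Its log2 change in the later step was 3.80 (SE 0.0916, adjusted p = 7.64e-12 with limma), or 24.2-fold between the means, and stayed between 3.73 and 3.86 when each library was left out in turn. In the first step the same gene changed by -0.49 (adjusted p = 5.96e-04 from limma), below a 2-fold change. The sprayed seedlings, which had also spent 24 h in light, had 16.7 and 19.0 FPKM with ABA and 15.3 and 16.6 FPKM with IAA, so that these 4 libraries lay between those of 8 h and those of 24 h. At its end the model overlaps a gene on the plus strand that had 1.57, 0.620 and 0.910 FPKM at 0, 8 and 24 h, far below the level reached at 24 h. The study's read counting did not use strand, and no strand setting is given in the sources used here for the FPKM values, so reads shared by these genes cannot be told apart.

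In 12 genes the later step carried on in the direction of the first. The 7 genes that kept rising had median levels of 3.97, 16.1 and 40.6 FPKM at 0, 8 and 24 h, and the 5 that kept falling had 33.4, 9.56 and 2.29 FPKM. Over both steps the rising genes gained 2.14 to 4.93 on the log2 scale and the falling genes changed by -4.24 to -2.35. The contrast between the steps was called in 2 of the 7, and in the falling genes the later step was not shown to differ in size from the first. All 12 kept their call from 8 h to 24 h in each fit that left out 1 library, and 7 of the rising and 4 of the falling genes were placed in the same pattern after scaling.

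LOC_Os01g24700, on the minus strand from 13899523 to 13900729, had the second largest fall after 8 h and belongs to these genes. Its level was 32.7 and 34.1 FPKM at 0 h, 6.83 and 7.98 FPKM at 8 h, and 0.998 and 0.661 FPKM at 24 h. The groups did not overlap at any step, and the transcript was close to absent at 24 h. The later log2 change was -2.20 (SE 0.120, limma adjusted p = 1.47e-08) and the first was -2.04 (adjusted p = 3.00e-08 from limma). Between these steps the difference was -0.16 (SE 0.207, limma adjusted p = 5.44e-01), and it missed the threshold. With ABA the gene had 0.492 and 0.648 FPKM and with IAA 0.819 and 0.806 FPKM, so that all 4 sprayed libraries were under 1 FPKM and both with ABA lay below those at 24 h. Its value after scaling was -2.07 for the later step. A fold change on the log2(FPKM + 1) scale understates the change of a gene at these low values, and the ratio of the means was 8.93 between 8 h and 24 h.

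For 40 genes no further change of 0.5 or more on the log2 scale followed the first step. Of these, 17 had risen in the first step and held their level, with medians of 4.36, 13.4 and 12.4 FPKM at 0, 8 and 24 h, and 23 had fallen and stayed low, with medians of 14.1, 4.20 and 4.83 FPKM. Their later changes ran from -0.33 to 0.40 in the first group and from -0.46 to 0.48 in the second. At 24 h, 14 of the 17 were called higher than in the dark, beside 6.96% of the tested genes, and 15 of the 23 were called lower, beside 8.52%. These counts follow in large part from the choice of genes with a called first step and a small later one, and over all tested genes 104 rises and 32 falls against the dark were called after scaling, as against 76 and 93 as deposited. The balance of these groups also depends on the scaling, since 29 genes stopped after a rise and 10 after a fall once the libraries were scaled, with 16 and 8 genes in both versions.

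A reversal was found in 16 genes, in which both steps were called and ran in opposite directions. In 11 of them the transcript peaked at 8 h, with median levels of 28.1, 83.3 and 40.7 FPKM at 0, 8 and 24 h, and in 5 it dipped, with 10.7, 1.40 and 7.08 FPKM. The contrast between the steps was called in all 16, as follows from the way they were chosen. On the log2(FPKM + 1) scale, the later step undid a median of 0.728 of the first step in the peaking genes, with a range from 0.394 to 2.05. In the dipping genes the median was 1.05, with a range from 0.476 to 1.59. These are shares of a log2 change and not of the FPKM gained or lost. In 10 of the 11 peaking genes the mean at 24 h was still above the mean in the dark, which the choice of genes with a called first rise favours. At 24 h 3 of the 11 were called higher than at 0 h, beside 6.96% of the tested genes, 1 was called lower, beside 8.52%, and 7 were not called. Of the 5 dipping genes, 3 had a mean at 24 h above that in the dark and 2 had one below it. In 1 of the 3, LOC_Os01g17396, the libraries at 24 h and 0 h overlapped. Its net log2 change was 0.06 (adjusted p = 5.07e-01 from limma), so an end above the dark level was not shown. Of the 5, 1 was called higher and 1 lower than at 0 h. After scaling the numbers were again 11 and 5, of which 7 and 4 were among the genes found as deposited.

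**Figure D3:**
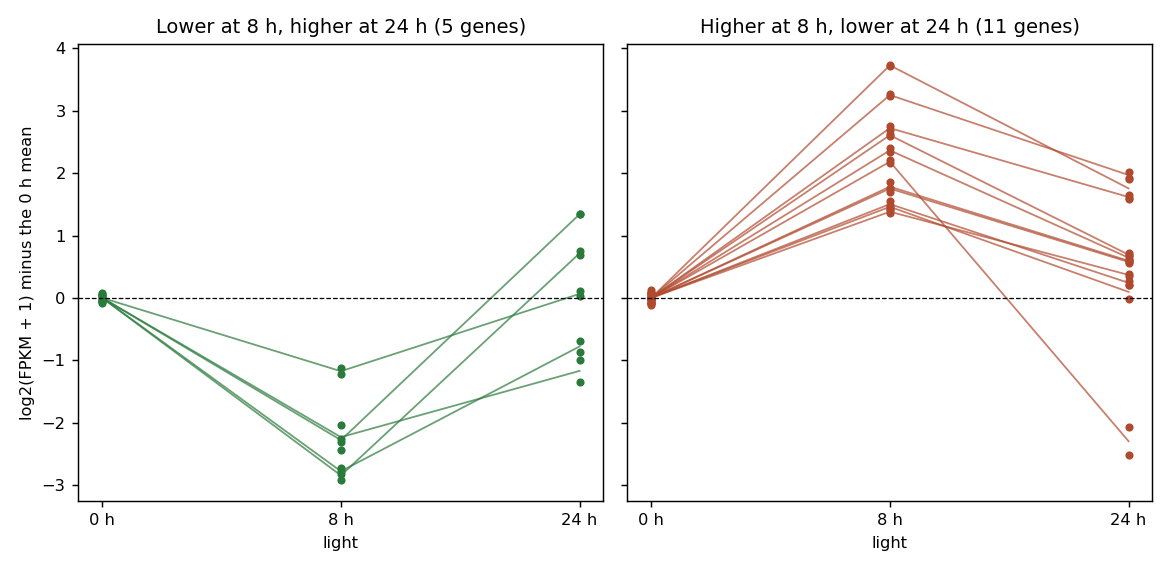
Transcript level of the 16 genes that reversed after 8 h, as log2(FPKM + 1) minus the gene's own mean at 0 h (y axis), at 0, 8 and 24 h of light (x axis). Points are single libraries and lines join the means of a gene; the left panel holds the 5 genes that dipped at 8 h and the right panel the 11 that peaked, of which 1 ended far below the dark level at a log2 change of -2.30.

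The largest change of any tested gene after 8 h was the fall of LOC_Os01g03680, a short gene on the plus strand from 1515837 to 1516832. It had 11.6 and 10.3 FPKM at 0 h, 54.0 and 52.5 FPKM at 8 h, and 1.84 and 1.07 FPKM at 24 h. The transcript thus rose in the first hours of light and then fell below its level in the dark, with no overlap between the libraries of any time points. The later step was a log2 change of -4.48 (SE 0.152, limma adjusted p = 1.85e-10), and the net change from the dark was -2.30 (SE 0.152, adjusted p = 4.71e-08 from limma). The sprayed seedlings differed from each other in this gene, with 0.515 and 1.0 FPKM with ABA and 8.86 and 8.33 FPKM with IAA.

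LOC_Os01g19740, on the minus strand from 11202595 to 11203335, had the next largest fall from a peak and was one of the most abundant transcripts of the table, above 99.8% of the tested genes in its mean. It had 103 and 109 FPKM at 0 h, 1427 and 1410 FPKM at 8 h, and 400.3 and 324 FPKM at 24 h. The later fall was a log2 change of -1.97 (SE 0.0817, limma adjusted p = 1.06e-09) and took the gene only part of the way back. At 24 h it was still 3.42-fold above its level in the dark, with a net log2 change of 1.76 (SE 0.0817, limma adjusted p = 1.96e-09). With ABA it had 466 and 470.3 FPKM and with IAA 656 and 626 FPKM, so that all libraries taken after 24 h in light lay between the dark and the 8 h values.

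Among the dipping genes, LOC_Os01g15900 and LOC_Os01g12810 changed most. LOC_Os01g15900, on the minus strand from 8949249 to 8952712, had 10.1 and 11.2 FPKM at 0 h, 1.36 and 1.44 FPKM at 8 h, and 28.6 and 28.5 FPKM at 24 h. It was nearly lost at 8 h and came back to a level above that in the dark. The later log2 change of LOC_Os01g15900 was 3.62 (SE 0.0704, limma adjusted p = 9.15e-13), or 20.4-fold between the means, and the net change was 1.34 (SE 0.0704, adjusted p = 5.52e-09 from limma). Its 4 sprayed libraries had 29.5 and 30.4 FPKM with ABA and 31.4 and 30.5 FPKM with IAA, close to the libraries at 24 h.

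LOC_Os01g12810, on the plus strand from 7092032 to 7095355, had 59.5 and 55.3 FPKM at 0 h, 6.71 and 7.54 FPKM at 8 h, and 96.9 and 92.9 FPKM at 24 h. Here too the libraries of the time points did not overlap, and the level at 24 h was the highest. The later log2 change was 3.56 (SE 0.0647, limma adjusted p = 9.15e-13), or 13.3-fold between the means. The net change from the dark was 0.72 (SE 0.0647, adjusted p = 9.10e-07 from limma), below a 2-fold change. With ABA the gene had 79.2 and 77.7 FPKM, and with IAA 53.5 and 51.7 FPKM.

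**Figure D4:**
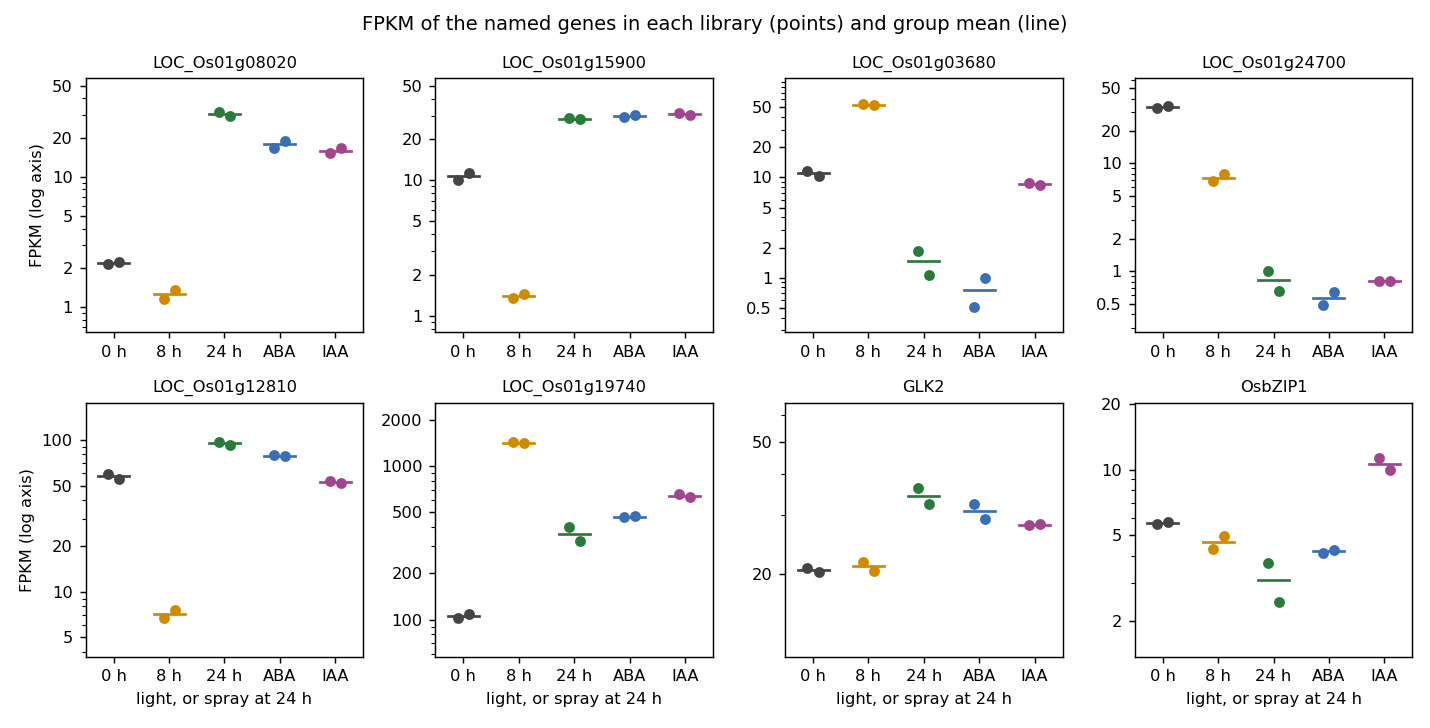
FPKM (log axis, with its own range in each panel) of the 8 named genes in each of the 10 libraries, from seedlings in the dark (0 h), after 8 h and 24 h in light, and after a spray of ABA or IAA near 24 h. Each point is a library and lines are the means of 2 replicates; LOC_Os01g08020, LOC_Os01g15900 and LOC_Os01g12810 are lowest at 8 h and above 28 FPKM in both libraries at 24 h, LOC_Os01g03680 and LOC_Os01g19740 are highest at 8 h, LOC_Os01g24700 is lower at 24 h than at 8 h, and GLK2 is higher at 24 h than at 8 h.

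Of the transcription factors that the study names, only GLK2 and OsbZIP1 are followed here. Both changed less than the genes above, which follows from the choice of those genes for their large changes. GLK2 (LOC_Os01g13740), an activator of chloroplast genes on the minus strand from 7686884 to 7693987, had 20.9 and 20.2 FPKM at 0 h, 21.7 and 20.4 FPKM at 8 h, and 36.3 and 32.5 FPKM at 24 h. Its level was nearly the same in the dark and at 8 h, with a log2 change of 0.03 (limma adjusted p = 7.19e-01), and rose in the later step, by a log2 change of 0.68 (SE 0.0725, limma adjusted p = 6.87e-06), which is 1.63-fold between the means and below the limit of a call. The contrast between the steps was 0.65 (SE 0.126, adjusted p = 1.23e-03 from limma), so the later change of GLK2 was larger than the first, as judged by the spread shared over the 5 conditions. After scaling the later change was 0.88 (adjusted p = 6.96e-07 from limma). The sprayed libraries of GLK2 had 32.5 and 29.3 FPKM with ABA and 28.0 and 28.3 FPKM with IAA, all above the libraries at 0 h and 8 h.

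OsbZIP1 (LOC_Os01g07880), a bZIP factor of the same kind as HY5, lies on the minus strand from 3811149 to 3812069. It had 5.58 and 5.70 FPKM at 0 h, 4.31 and 4.93 FPKM at 8 h, and 3.71 and 2.45 FPKM at 24 h. Both libraries at 24 h lay below those at 8 h, but they differed from each other more than those at the other time points. The later log2 change of OsbZIP1 was -0.48 (SE 0.133, limma adjusted p = 8.62e-03), below a 2-fold change. It came to -0.70 when 24h replicate 1 was left out and to -0.25 when 24h replicate 2 was (limma adjusted p = 9.09e-02), so its size rested on the second of these libraries. After scaling it was -0.31 and did not pass the test (limma adjusted p = 7.52e-02). The contrast between the steps was -0.23 (SE 0.230, adjusted p = 4.33e-01 from limma), so a faster fall after 8 h was not detected. The net change from the dark was -0.72 (SE 0.133, limma adjusted p = 3.32e-04), beside a median of -0.38 over all tested genes. The study reports no significant change of OsbZIP1 under light, from a t-test. With ABA OsbZIP1 had 4.12 and 4.24 FPKM and with IAA 11.3 and 9.91 FPKM.

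The 41 genes that met none of these rules were called in 1 step and changed by 0.5 or more in the other without a call there. In the later step 9 of them rose, with median levels of 4.94, 7.45 and 17.0 FPKM at 0, 8 and 24 h and a median change of 1.3, and 12 fell, with 18.0, 17.2 and 6.68 FPKM and a median change of -1.23. Most of these 12 had first moved upward, and the median first change over all 12 was 0.86. At 24 h, 3 of the 12 were called lower than in the dark, beside 8.52% of the tested genes, and 9 were not called. In that comparison 15.5% of the tested genes were called in either direction. The other 20 were called in the first step alone. Of these, 11 had risen and then changed by a median of -0.79, and 9 had fallen and then changed by a median of 0.69, so that the median gene of both groups moved part of the way back.

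The called genes were spread over the stretch of chromosome 1, and some were close neighbours with a shared direction. With a gap under 20 kb between gene models, 4 groups of neighbours were found, each of 2 genes, so 8 of the 77 called genes were in such a group. How many such groups another set of tested genes of this size would hold was not counted. In the first group that fell, between 322556 and 328451, the summed level of the pair was 30.6, 21.7 and 9.04 FPKM at 0, 8 and 24 h. The other pair that fell, between 1347567 and 1354802, held abundant transcripts, with a summed level of 648, 249 and 71.0 FPKM at 0, 8 and 24 h. Its genes fell by -2.20 and -1.61 in the later step and had also been lower at 8 h than in the dark, by -2.0 and -0.89. A pair that rose, between 4152864 and 4171559, had 7.42, 8.34 and 54.9 FPKM at 0, 8 and 24 h, with later changes of 2.36 and 2.52 and first changes of -0.05 and 0.47. Its rise thus came almost wholly after 8 h. The last pair, between 10003950 and 10011595 on opposite strands, had 29.9, 27.6 and 73.5 FPKM and rose by 1.24 and 1.36, after first changes of -1.18 and 0.09. Neighbouring genes can be copies that share reads, and how much of a shared direction comes from such reads was not tested. Of the genes called higher 3 overlapped another gene model and of those called lower 2, beside 3.39% of the tested genes, and their values are uncertain.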

How the data were processed

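RNA-seq reads were trimmed by the authors with seqtk and mapped to the rice genome with Hisat2, and the authors calculated the deposited FPKM values with Cufflinks. Versions of these tools are not given in the sources used here, and the unit FPKM follows the study's methods, while one of its plots of expression is marked TPM. The submitters' processing notes also name SAMtools, featureCounts and DESeq2. Columns were matched to samples by name, and 1 incomplete row was left out. Whole reads could not be recovered, since no more than 8.70% of the genes with values below 0.1 FPKM had a common ratio of the replicates (tolerance 2%), so no count test was run and the depth is unknown.

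The 10 libraries were fitted with limma 3.58.1 in R 4.3.3 (lmFit, eBayes with a trend) on log2(FPKM + 1) without further scaling, keeping genes whose mean reached 1 FPKM. Calls needed a 2-fold change and an adjusted p-value (Benjamini-Hochberg, over all 1092 tested genes) under 0.01, the limits of the study's own analysis. With 2 replicates per group, p-values rest on the spread shared over groups. The replicates at 24 h lay farther apart than those of the other conditions, so p-values of comparisons with 24 h may be too small. A fit of only the compared libraries called 38 rises and 39 falls in the later step. The fit was tested on simulated data. Summaries and plots were made in Python 3.11.15 (numpy 2.4.6, pandas 2.3.3, matplotlib 3.10.9).

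The genes, patterns and tests were chosen with earlier results of these data known. The rule named at most 2 genes each for the largest rise, fall, dip and peak, with both libraries of one time beyond both of the other for the rise and fall, and the genes the study names. The border of 1 FPKM and the gap of 20 kb were chosen after the values were seen. Gene lists by function and promoter motifs were planned and not run, since the RefSeq table (assembly ASM3414082v1) holds no descriptions and no sequences were used here. The alternatives were a pseudocount of 0.1, median-of-ratios scaling, no filter or a filter at 5 FPKM, a limit of 0.05 on the adjusted p-value, a fit of only the compared libraries, a block for the replicate number, and fits without each replicate. Chromatin accessibility, Pol II occupancy and genes outside the table used here are not analysed here.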

Additional observations from a re-analysis of the deposited data

How the results depend on the processing

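The scaling of the libraries and the pseudocount moved the results most. After median-of-ratios scaling, which by construction centres the typical gene, the falls numbered 23 in the later step (8 h to 24 h), 26 in the first step (0 h to 8 h) and 32 over both steps, as against 39, 42 and 93 in the values as deposited, and the median of the later step was 0.0016. With a pseudocount of 0.1, 66 genes fell in the first step and 26 reversed, and the median of the later step was -0.21. This median was -0.038 without a filter and -0.22 with a filter at 5 FPKM, both of which change the genes counted. The cause of the move under the pseudocount was not tested. The 8 named genes kept their direction and their side of the call in all 11 alternatives. OsbZIP1, under 2-fold and so never called, had an adjusted p-value in limma from 2.13e-04 to 9.09e-02 over them.

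When each library of 24 h and 8 h was left out in turn, the remaining library was assumed to vary like the other groups. In the later step 35 to 40 genes rose and 32 to 53 fell, in the first step 45 to 46 rose and 42 to 45 fell, and over both steps 69 to 76 rose and 74 to 126 fell. The contrast between the steps called 148 to 171 genes, 24 to 35 started, 37 to 43 stopped, 14 to 17 reversed and 11 to 13 continued, and the median of the later step ran from -0.20 to -0.16. A shared replicate number did not make libraries deviate together (correlations from -0.065 to 0.109), so it was not taken as a pairing. In the fit with the replicate number as a block, 38 genes rose and 40 fell in the later step, 46 rose and 42 fell in the first, 76 rose and 93 fell over both, 160 were called in the contrast, 29 started, 40 stopped, 16 reversed and 12 continued, with a median of -0.18. Depth is unknown, so the precision of weak genes is known only from the replicates.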
